A study of Mus musculus with 59 samples.

Results

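*Stap2*, *Plcb3*, *Grm4*, *A830018L16Rik*, and *Triobp* were followed across 5 brain regions and 3 genotypes in a mouse model of spinocerebellar ataxia type 1 (SCA1), a disease caused by an expanded glutamine tract in ATXN1. They are 5 of the 54232 mouse genes in the count files. They were chosen by their read counts in the cerebellum, which lie nearer to WT when the expanded ATXN1 cannot bind the transcriptional repressor Capicua (CIC) than when it can. This property is common. Of 20874 genes tested in the cerebellum, 11286 (54.1%) lay nearer to WT by this measure, and so did 992 of the 1089 genes called in the mice with the expanded allele. Because the cerebellar differences chose the genes, they are given as a description without a test. The 5 genes are tested only in comparisons that the choice did not use. Other genes, from lists chosen with earlier results of these data known, were tested in the same cerebellar libraries.

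The 59 RNA-seq libraries came from 12 C57BL/6 mice aged 10 weeks. The 4 WT mice were WT-70 and WT-77 with WT-220 and WT-221. The 4 Atxn1_154Q/2Q mice (named 154Q below, with mice 154Q-69 and 154Q-71 as well as 154Q-75 and 154Q-76) carry an expanded CAG repeat knocked into 1 *Atxn1* allele beside an allele with the normal mouse repeat. The 4 Atxn1_154Q[V591A;S602D]/2Q mice (named 154Q-AXH below, with mice 154Q-AXH-207 and 154Q-AXH-209 as well as 154Q-AXH-217 and 154Q-AXH-218) carry the same expansion with the substitutions V591A and S602D on the expanded allele, which were made with CRISPR-Cas9 and disrupt the binding of ATXN1 to CIC. As knockin alleles, both are driven by the *Atxn1* locus itself and not confined to 1 cell type, and the other *Atxn1* allele of each mutant mouse carries neither the expansion nor the substitutions. Each library is 1 region of 1 mouse, with 4 libraries in each region and genotype except the brainstem of 154Q-AXH mice, which has 3 (none from 154Q-AXH-217).

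*Grm4* encodes metabotropic glutamate receptor 4, a G protein-coupled receptor that lowers transmitter release and that is best known from the parallel fiber terminals of cerebellar granule cells. *Plcb3* encodes a phospholipase C beta, the enzyme that couples Gq-linked receptors such as metabotropic glutamate receptor 1 to calcium release and diacylglycerol, and Purkinje cells, the output neurons of the cerebellar cortex, rely on this pathway at their parallel and climbing fiber synapses. *Stap2* encodes a signal-transducing adaptor with a pleckstrin homology domain and an SH2 domain that acts with STAT factors and other tyrosine kinase signals. *Triobp* encodes a protein that binds TRIO and bundles filamentous actin. *A830018L16Rik* is a gene named from a cDNA clone, and no role is given for it here.

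Libraries held between 28.06 M and 112.3 M read pairs (M, mega) assigned to genes. The median was 35.3 M for striatum, 39.7 M for cortex, 83.1 M for hippocampus, 85.4 M for cerebellum, and 89.6 M for brainstem. Striatal and cortical libraries (at most 54.72 M and 46.17 M) were all below the rest, so region and depth cannot be told apart between these and the others. Depth overlapped among cerebellum (64.42 to 106.2 M), hippocampus (69.47 to 106.9 M), and brainstem (75.37 to 112.3 M). The cerebellar label was borne out by its defining markers, with 8 Purkinje cell markers summing to 7581 to 10860 CPM (counts per M read pairs of library size) per library and none at 0. The hippocampal library of 154Q-76 stood apart, because 5 brainstem neuron markers summed to 348 CPM there and to at most 1.61 CPM in every other hippocampal library. Markers of striatal neurons summed to 4510 CPM in the striatal library of WT-220 and to 2775 CPM in that of 154Q-AXH-217, against 496 to 1858 CPM in the other striatal libraries. In the cortex, the file names of 154Q-76 and 154Q-AXH-207 each give the other mouse, and the labels were followed. The numbers of all 154Q mice belong to a lower series (below 100) and those of all 154Q-AXH mice to a higher one (above 200). WT mice occur in both. Genotype and number series therefore coincide between the mutants and cannot be told apart there without the WT mice.

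On GRCm38 with the GENCODE M21 gene models, *Stap2* (ENSMUSG00000038781) lies at chr17:55997077-56005584 on the minus strand, *Grm4* (ENSMUSG00000063239) at chr17:27422387-27521403 on the minus strand, *Plcb3* (ENSMUSG00000024960) at chr19:6952325-6976470 on the minus strand, *Triobp* (ENSMUSG00000033088) at chr15:78947724-79005869 on the plus strand, and *A830018L16Rik* (ENSMUSG00000057715) at chr1:11414105-11975901 on the plus strand. All 5 are annotated as protein coding, and values count read pairs over the exons of each gene. The counts do not use strand. *Triobp* shares 93 exon bases (0.756%) with the antisense gene *Gm10865*, and *Plcb3* shares 22 (0.316%) with *Ppp1r14b*, so reads in these stretches cannot be assigned to 1 gene. The count files hold ambiguous read pairs in a summary line, which was left out of the values. All 5 genes passed the filter on low counts in all 5 regions.

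The question of the study concerns binding of CIC, so the sequence before the start of each gene was read. The study itself mapped CIC binding across the genome in the mouse cerebellum. Whether its binding sites lie at the 5 genes is not given here. RefSeq promoter windows (GRCm38.p6, 250 bases before to 50 bases after a start) were held for 3 of the 5 genes, 2 of them for *Stap2*, 1 for *Plcb3*, and 2 for *Triobp*. Octamers that CIC is known to bind (TGAATGAA, TGAATGGA, TCAATGAA, and TCAATGGA, searched on both strands) had 0 matches in these 5 windows, and 1260 of 32851 RefSeq promoters of the same length (3.84%) hold at least 1. No match says only that these letters are absent from these windows. The 250 bases before 1 start of each gene are shown 5′ to 3′ on the strand of the gene so that the windows can be read, in lower case throughout since no octamer was there to capitalize. They lie at chr17:56005607-56005856 for *Stap2* (minus strand, 48.8% G or C), chr19:6969815-6970064 for *Plcb3* (minus strand, 64.4%; this start lies inside the gene as annotated by GENCODE, downstream of its outermost start), and chr15:78947474-78947723 for *Triobp* (plus strand, 50.4%).
Stap2: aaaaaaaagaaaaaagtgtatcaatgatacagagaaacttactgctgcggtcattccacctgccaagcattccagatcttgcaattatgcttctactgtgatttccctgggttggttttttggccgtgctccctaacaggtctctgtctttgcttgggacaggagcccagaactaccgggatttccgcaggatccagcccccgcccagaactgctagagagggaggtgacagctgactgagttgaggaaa
Plcb3: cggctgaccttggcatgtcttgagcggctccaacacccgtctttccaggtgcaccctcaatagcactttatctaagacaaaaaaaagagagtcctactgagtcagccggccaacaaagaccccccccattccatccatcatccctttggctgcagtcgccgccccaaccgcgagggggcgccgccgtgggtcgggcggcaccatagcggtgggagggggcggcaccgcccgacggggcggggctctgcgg
Triobp: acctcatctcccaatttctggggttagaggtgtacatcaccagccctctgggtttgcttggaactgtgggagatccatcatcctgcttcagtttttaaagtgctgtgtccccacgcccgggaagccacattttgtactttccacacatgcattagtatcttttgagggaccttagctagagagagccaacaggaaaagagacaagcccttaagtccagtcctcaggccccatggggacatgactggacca

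In the cerebellum, 4 of the 5 genes were lower in 154Q mice than in WT mice and 1 was higher. In 154Q-AXH mice, *Stap2*, *Plcb3*, *Grm4*, and *A830018L16Rik* lay between the other genotypes, and *Triobp* overlapped WT. All values here are CPM from library sizes scaled by the trimmed mean of M values (TMM), given as mean ± SD (n = 4 mice), and fold changes are fitted by edgeR. These contrasts chose the genes, so no test is given. Libraries did not overlap for 5 of 5 genes between 154Q and WT, 4 of 5 between 154Q-AXH and WT, and 5 of 5 between the mutants, where 10.1%, 8.82%, and 6.05% of all genes did not overlap, and nothing is read from these counts, since the same values chose the genes.

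For the receptor gene *Grm4*, the WT libraries had 355, 389, 395, and 346 CPM, the 154Q libraries 194.8, 207.1, 209.04, and 220.7 CPM, and the 154Q-AXH libraries 291, 292, 276, and 252 CPM, in the order of the mouse numbers. Every 154Q library was below every 154Q-AXH library, and every 154Q-AXH library was below every WT library. The mean was 371 ± 24.3 CPM in WT, 208 ± 10.6 CPM in 154Q, and 278 ± 18.4 CPM in 154Q-AXH mice. Against WT, the log2 fold change was -0.84 (SE 0.057) in 154Q, or 0.560 of the WT level, and -0.42 (SE 0.057) in 154Q-AXH, or 0.748 of it.

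For *Plcb3*, downstream of Gq-linked receptors, the WT libraries had 73.5, 66.6, 67.3, and 75.2 CPM, the 154Q libraries 39.6, 42.0, 39.0, and 38.7 CPM, and the 154Q-AXH libraries 53.3, 51.2, 54.2, and 56.5 CPM. The 3 genotypes formed groups that did not overlap. The log2 fold change against WT was -0.83 (SE 0.050) in 154Q and -0.39 (SE 0.049) in 154Q-AXH mice.

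The adaptor gene *Stap2* had the largest fold change of the 5. Its WT libraries had 23.6, 24.3, 26.7, and 25.6 CPM, its 154Q libraries 11.1, 11.5, 10.9, and 11.3 CPM, and its 154Q-AXH libraries 19.6, 17.3, 15.95, and 16.8 CPM. The 154Q libraries lay close together and below the rest, and the 154Q-AXH libraries all lay between them and WT. On the log2 scale, the change from WT was -1.16 (SE 0.065) in 154Q, or 0.446 of the WT level, and -0.52 (SE 0.063) in 154Q-AXH, or 0.695 of it.

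*A830018L16Rik* went the other way. Its WT libraries had 10.7, 10.3, 11.1, and 11.7 CPM, its 154Q libraries 21.7, 22.1, 21.9, and 20.3 CPM, and its 154Q-AXH libraries 15.8, 16.4, 17.2, and 14.3 CPM. The groups again did not overlap, with 154Q highest. Its log2 fold change against WT was 0.97 (SE 0.064) in 154Q, or 1.96 times the WT level, and 0.54 (SE 0.064) in 154Q-AXH, or 1.46 times it.

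*Triobp*, the actin-bundling gene, moved least. Its WT libraries had 34.8, 32.9, 35.7, and 33.9 CPM, its 154Q libraries 28.1, 30.3, 25.4, and 26.6 CPM, and its 154Q-AXH libraries 36.1, 34.5, 34.0, and 35.6 CPM. The 154Q libraries were below all others, and the WT and 154Q-AXH libraries overlapped. Its log2 fold change against WT was -0.31 (SE 0.054) in 154Q and 0.03 (SE 0.053) in 154Q-AXH mice.

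**Figure D1:**
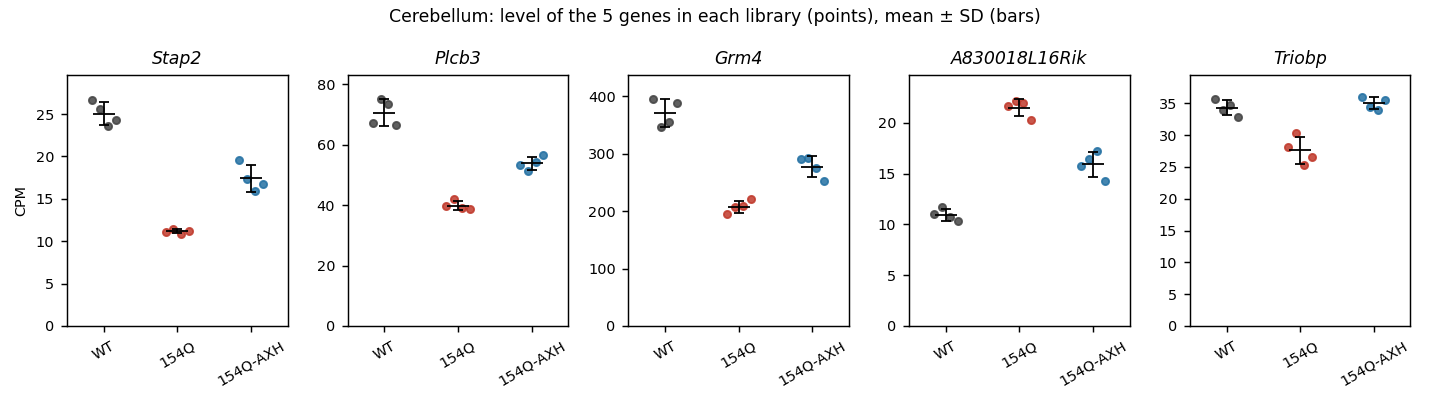
Level of each of the 5 genes in the 12 cerebellar libraries, in CPM on a linear axis from 0, by genotype. Points are libraries (1 mouse each, 4 per genotype) and bars are mean ± SD. *Grm4* falls from a mean of 371 in WT to 208 in 154Q with 154Q-AXH at 278, *A830018L16Rik* shows the opposite order, and *Triobp* in 154Q-AXH overlaps WT.

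Taken as a share of the 154Q change on the log2 scale, the change that was left in 154Q-AXH mice was 45.1% for *Stap2*, 47.55% for *Plcb3*, 50.1% for *Grm4*, 55.6% for *A830018L16Rik*, and -9.45% for *Triobp*, whose small remainder had the opposite sign. The median ratio over all 1089 genes called in 154Q mice was 0.656. The rule has its limit at a ratio of 1. The called genes on either side of the limit were *Atxn10*, with log2 fold changes of 0.1759 in 154Q and 0.1756 in 154Q-AXH (inside), and *Gm38562*, with -0.3267 and -0.3282 (outside). The 2 mutant genotypes share the WT libraries as control. Their mice belong to different number series, so genotype and series cannot be told apart in these ratios.

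These are bulk tissue libraries, in which fewer cells of a type and less RNA per cell cannot be told apart. In the cerebellum, the sums of some cell type markers in 154Q mice lay below all WT values, and others overlapped WT. The 8 Purkinje cell markers summed to 9713 to 10860 CPM in WT, 7581 to 8198 CPM in 154Q, and 8326 to 8959 CPM in 154Q-AXH mice. The 8 granule cell markers summed to 5915 to 6745, 5559 to 5820, and 6034 to 6346 CPM, and the 6 astrocyte and Bergmann glia markers to 2710 to 3020, 2469 to 2608, and 2624 to 2719 CPM. By edgeR, 7 of 8 Purkinje cell, 2 of 8 granule cell, and 2 of 6 glial markers fell in 154Q mice. Endothelial markers (163.5 to 180.2 CPM) overlapped between all genotypes, as did choroid plexus markers (22.1 to 3054 CPM). Oligodendrocyte markers summed to 6214 to 7371, 5947 to 6697, and 5239 to 6510 CPM in WT, 154Q, and 154Q-AXH mice. Microglia markers summed to 100.2 to 115, 106.1 to 118.3, and 98.79 to 105 CPM. The part of these cell types in the values of the 5 genes was not tested.

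The genes that surround the 5 in their pathways were examined through lists that hold none of the 5. These lists were chosen with earlier results known. Their cerebellar tests use the libraries and contrasts that chose the 5, so they are not independent of that choice. In the cerebellum, 5.22% of all genes tested were called by edgeR (adjusted p under 0.05) in 154Q against WT, 2.21% in 154Q-AXH against WT, and 0.0335% in 154Q-AXH against 154Q. The list with the most calls was that of phospholipase C beta and Gq signalling. Of its 14 genes, 8 fell and 0 rose in 154Q mice, with a list median of -0.31 on the log2 scale against 0.0012 over all genes. In 154Q-AXH mice, 4 fell, with a list median of -0.20. None of the 14 was called between the 2 mutant genotypes by edgeR, with 6 at an unadjusted p under 0.05 and 2 (*Rgs8* and *Dagla*) called by DESeq2.

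*Rgs8*, a regulator that shortens G protein signals, fell most, with a log2 fold change of -0.57 (SE 0.044, edgeR adjusted p = 3.86e-06) in 154Q and -0.34 (SE 0.044, edgeR adjusted p = 0.00113) in 154Q-AXH mice. *Dagla*, which makes the endocannabinoid 2-arachidonoylglycerol from diacylglycerol, had -0.49 (edgeR adjusted p = 1.66e-05) and -0.29 (edgeR adjusted p = 0.00418). *Car8*, which binds the inositol trisphosphate receptor, had -0.39 (edgeR adjusted p = 5.49e-05) and -0.25 (edgeR adjusted p = 0.00574).

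Among the others called in 154Q mice were the receptor itself, *Itpr1* (-0.29), the phosphatase *Inpp5a* (-0.33), and the scaffold *Homer3* (-0.47). In 154Q-AXH mice these 3 had -0.21, -0.19, and -0.32, and edgeR adjusted p values from 0.0669 to 0.0930. *Rgs8*, *Car8*, and *Itpr1* are also among the 8 Purkinje cell markers above, and 7 of those 8 markers fell in 154Q mice.

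**Figure D2:**
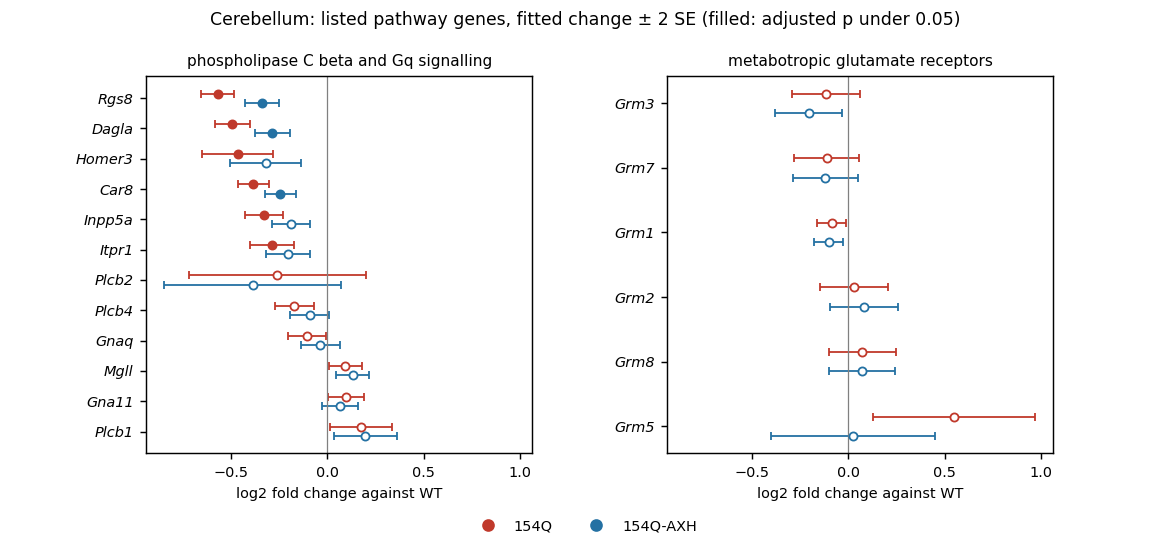
Fitted log2 fold change against WT in the cerebellum (points, with bars of 2 SE on either side) for genes of the lists of phospholipase C beta and Gq signalling (12 of the 14 genes) and metabotropic glutamate receptors (6 genes), in 154Q and 154Q-AXH mice. Filled points have an edgeR adjusted p under 0.05. There are 6 filled points for 154Q and 3 for 154Q-AXH in the first list and none in the second.

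Among the relatives of *Grm4*, 6 of the 7 other metabotropic glutamate receptor genes could be tested in the cerebellum, and edgeR called 0 of 6 in each of the 3 comparisons, with 2, 2, and 1 at an unadjusted p under 0.05 (154Q against WT, 154Q-AXH against WT, and 154Q-AXH against 154Q) and 0 in each by DESeq2. Their list median in 154Q against WT was -0.03.

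Of 10 tested genes of STAP adaptors and JAK-STAT signalling, around *Stap2*, 1 rose in 154Q mice, the transcription factor gene *Stat5b* (log2 fold change 0.16, SE 0.037, edgeR adjusted p = 0.0248). In 154Q-AXH against WT, edgeR called 0 of 10, with 1 at an unadjusted p under 0.05 and 1 (*Stat5b*) called by DESeq2. Of 11 genes of TRIO and actin, around *Triobp*, 3 fell in 154Q mice, namely the cross-linker *Actn1* (-0.20, edgeR adjusted p = 0.0416), the nonmuscle myosin *Myh9* (-0.22, edgeR adjusted p = 0.0136), and the TRIO relative *Kalrn* (-0.27, edgeR adjusted p = 0.0239). In 154Q-AXH mice 1 of the 11 fell, *Myh9* (-0.20, edgeR adjusted p = 0.0439).

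Of 7 genes of the Purkinje cell stripes (zebrin bands), 3 fell in 154Q mice. They were *Gabbr2*, a GABA-B receptor subunit (-0.38), *Slc1a6*, a glutamate transporter (-0.21), and *Aldoc*, the glycolytic enzyme also known as zebrin II (-0.42). From this list edgeR called 0 of 7 in 154Q-AXH mice, with 3 at an unadjusted p under 0.05 and 2 (*Aldoc* and *Ebf2*) called by DESeq2. Of 9 CIC target genes known from other systems, edgeR called 0 in 154Q mice, with 1 at an unadjusted p under 0.05 and 1 (*Etv4*) called by DESeq2. The change of *Etv4* in 154Q mice was a rise (log2 fold change 0.26, edgeR adjusted p = 0.0570). For some genes of this list, among them *Etv4*, *Etv5*, and *Spred1*, the study also reports CIC binding in the mouse cerebellum. In 154Q-AXH mice *Etv4*, an ETS transcription factor gene, rose (log2 fold change 0.34, SE 0.073, edgeR adjusted p = 0.0260). *Etv4* and *Ebf2* are named after their values were seen. Between the mutants, edgeR called 0 genes of each of the last 4 lists, with 0 (JAK-STAT), 3 (actin), 3 (stripes), and 1 (CIC targets) at an unadjusted p under 0.05 and 0 in each by DESeq2. Over all lists, 15 genes were called in 154Q against WT and 6 in 154Q-AXH against WT. With DESeq2 these counts were 20 and 12. Once the series of mouse numbers was a covariate they were 12 and 14, so that the order of the genotypes did not hold.

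The levels of the 5 genes in WT mice differed widely between regions. The WT cerebellar libraries were part of the contrast that chose the genes, although a comparison with other regions was not. In an F test over the 5 regions (edgeR, 4 WT mice), 5 of 5 genes were called, where 91.6% of 22200 genes were. All 5 also differed between the cerebellum and each other region, where 65.4% of genes differed for the brainstem, 63.6% for the hippocampus, 71.8% for the striatum, and 70.3% for the cortex. *Stap2*, *Plcb3*, *Grm4*, and *Triobp* were highest in the cerebellum, and *A830018L16Rik* was lowest there. Among the other regions, the share of all genes called was 60.7% between brainstem and hippocampus, 66.1% between brainstem and striatum, 65.1% between brainstem and cortex, 58.2% between hippocampus and striatum, 55.4% between hippocampus and cortex, and 10.7% between striatum and cortex.

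*Grm4* had 371 ± 24.3 CPM in the WT cerebellum, followed by 47.7 ± 10.3 CPM in the striatum, 36.8 ± 4.24 CPM in the brainstem, 33.4 ± 2.88 CPM in the cortex, and 10.2 ± 1.89 CPM in the hippocampus. Brainstem and cortex did not differ beyond their spread (edgeR adjusted p = 0.546). The striatum was above the brainstem (edgeR adjusted p = 0.00855) and the cortex (edgeR adjusted p = 0.0177), but without mouse WT-220, whose striatal library stood apart, neither held (edgeR adjusted p = 0.166 and 0.134). The hippocampal level was 0.0279 of the cerebellar one on the fitted scale.

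*Stap2* had 25.04 ± 1.37 CPM in the cerebellum and 1.42 ± 0.289 to 1.88 ± 0.264 CPM in the other regions. Its counts were low outside the cerebellum, at 30 to 238 read pairs per library, and no pair of the other 4 regions differed by edgeR (adjusted p from 0.0638 to 0.938). Without WT-220, its level in the brainstem was above that in the hippocampus (edgeR adjusted p = 0.0257) and the striatum (edgeR adjusted p = 0.00534). *Plcb3* had 70.7 ± 4.33 CPM in the cerebellum and 20.4 ± 1.33 to 21.8 ± 2.05 CPM elsewhere. No pair of the other 4 regions differed for *Plcb3* (edgeR adjusted p from 0.0650 to 0.946), but with the mouse as a block, since the same mice give every region, its brainstem level was below that of the striatum (edgeR adjusted p = 0.0258) and cortex (edgeR adjusted p = 0.0332).

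*Triobp* had 34.3 ± 1.18 CPM in the cerebellum, 10.2 ± 0.329 CPM in the cortex, 9.51 ± 0.560 CPM in the brainstem, 9.01 ± 0.588 CPM in the striatum, and 6.58 ± 0.332 CPM in the hippocampus. The hippocampus was below every other region (edgeR adjusted p at most 3.77e-06), the cortex was above the brainstem (edgeR adjusted p = 0.0450), and the striatum differed from neither of these (edgeR adjusted p = 0.673 and 0.0869).

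*A830018L16Rik* was the reverse, with 10.9 ± 0.568 CPM in the cerebellum, 50.7 ± 2.56 CPM in the brainstem, 75.2 ± 15.2 CPM in the striatum, 84.9 ± 2.30 CPM in the cortex, and 106 ± 6.73 CPM in the hippocampus. Striatum and cortex did not differ beyond their spread (edgeR adjusted p = 0.274), and each other step in this order did. The hippocampal level was 9.91 times the cerebellar one on the fitted scale.

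Per kilobase of exon, which allows genes to be compared, *Grm4* stood at 62.1 ± 4.07 CPM in the WT cerebellum. *Plcb3* followed at 10.2 ± 0.622 and *Stap2* at 9.75 ± 0.531, with *Triobp* at 2.79 ± 0.0959 and *A830018L16Rik* at 1.19 ± 0.0618 CPM per kilobase. In the hippocampus *A830018L16Rik* was the highest of the 5, at 11.6 ± 0.733 CPM per kilobase, and *Triobp* the lowest, at 0.535 ± 0.0270.

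**Figure D3:**
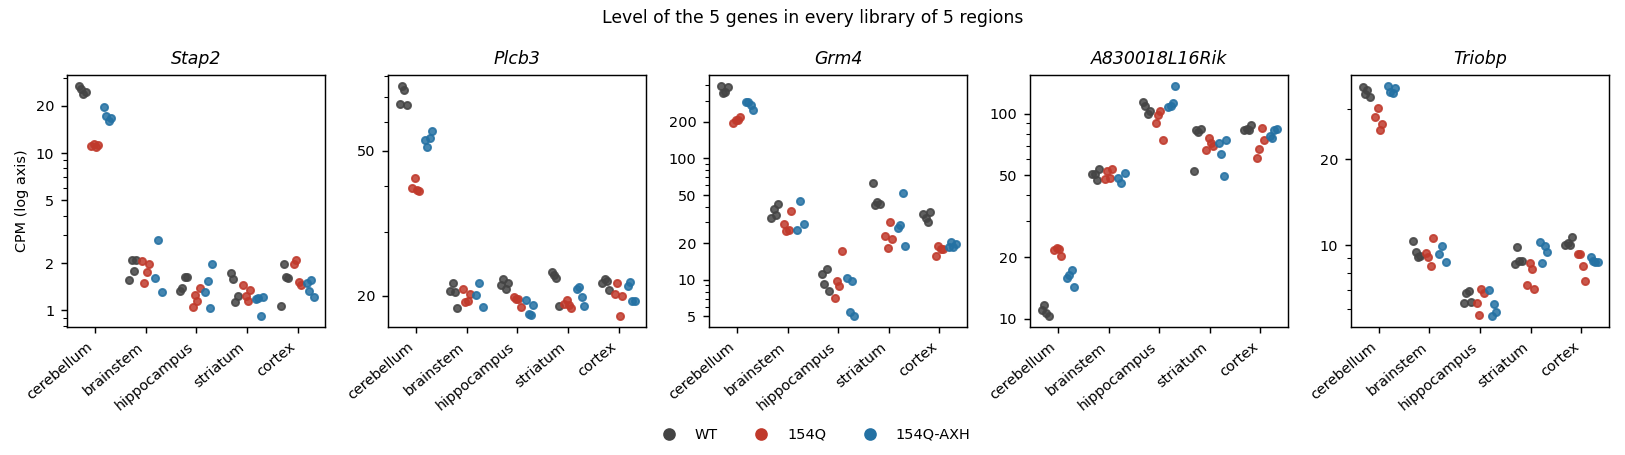
Level of each of the 5 genes in CPM (log axis) in every library of 5 regions, 1 point per mouse, colored by genotype. The 4 genes other than *A830018L16Rik* are highest in the cerebellum, where all 154Q libraries lie below WT, and *A830018L16Rik* is lowest there and highest in the hippocampus.

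Across the 15 means of region and genotype, the genes whose log2 CPM followed each member most closely (Pearson's r over 17540 genes, without a test, since the points share regions and depth) included *Jup* (0.989) and *Gm10118* (0.988) for *Grm4*. For *Stap2* they were *Atp2a3*, *Cep76*, and *Clcn1* (0.988 to 0.990), for *Plcb3* *Unc13d*, *Inpp4a*, and *Clcn1* (0.977 to 0.982), for *Triobp* *Chn2*, *H6pd*, and *Tspan4* (0.991 to 0.996), and for *A830018L16Rik* *Cpne4*, *Grm5*, and *Fgf13* (0.984 to 0.989). *Grm5* is on the list of metabotropic glutamate receptors above.

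Across the 12 cerebellar libraries, which fall into the genotypes that chose the members, the closest genes included *Camk1d* and *Plk5* for *Stap2* (0.973 and 0.972), *Doc2b*, *Plxdc1*, and *Cep76* for *Plcb3* (0.982 to 0.985), and *Mirt1*, *Rnf123*, and *Chn2* for *Grm4* (0.960 to 0.963). For *A830018L16Rik* they were *Slc44a5*, *BB365896*, and *Slc39a6* (0.958 to 0.965), and for *Triobp* *Mir8102*, *Itga7*, and *Gm17120* (0.912 to 0.937).

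In the 4 regions whose values did not enter the choice of genes, *Grm4* fell in the cortex of both mutants and in the striatum of 154Q mice, and edgeR called no other of the 5 genes. With 5 genes in 4 regions there are 20 pairs of gene and region. In 154Q against WT, edgeR called 2 of 20, *Grm4* in the striatum and in the cortex, where it called 11.1% of all genes in the cortex, 5.69% in the striatum, 5.91% in the hippocampus, and 0.538% in the brainstem. DESeq2 called 5, adding *Plcb3* in the hippocampus and *Triobp* and *A830018L16Rik* in the cortex. In 154Q-AXH against WT, edgeR called 1 of 20, *Grm4* in the cortex, where it called 7.15%, 1.35%, 1.3%, and 0.0138% of all genes in the same order, and DESeq2 added *Plcb3* in the hippocampus. In 154Q-AXH against 154Q, edgeR called 0 of 20, with 2 at an unadjusted p under 0.05 and 0 called by DESeq2, and 0% of all genes were called by edgeR in each of the 4 regions. The share of genes whose libraries did not overlap in these comparisons (154Q against WT, 154Q-AXH against WT, 154Q-AXH against 154Q) was 14.7%, 15.5%, and 3.02% in the cortex, 17.1%, 6.87%, and 4.98% in the striatum, 13.8%, 12%, and 4.79% in the hippocampus, and 6.1%, 8.64%, and 6% in the brainstem.

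In the cortex, *Grm4* had 29.8, 36.5, 34.7, and 32.5 CPM in the WT libraries, 15.9, 19.1, 18.02, and 18.03 CPM in the 154Q libraries, and 18.5, 20.4, 18.6, and 19.7 CPM in the 154Q-AXH libraries. All mutant libraries were below all WT libraries, and the 2 mutant genotypes overlapped. Relative to WT, the log2 fold change was -0.91 (SE 0.072, edgeR adjusted p = 4.53e-06) in 154Q, or 0.532 of the WT level, and -0.79 (SE 0.072, edgeR adjusted p = 1.51e-05) in 154Q-AXH, or 0.578 of it. The difference between the mutant genotypes was 0.12 (interval of 2 SE on either side, -0.03 to 0.27, edgeR adjusted p = 0.792). Both cortical calls held without each cortical library in turn. The 5 cortical neuron markers also had lower sums in both mutants, 517 to 617 CPM in WT, 369 to 448 CPM in 154Q, and 370 to 447 CPM in 154Q-AXH mice. The 6 astrocyte markers summed to 1157 to 1280, 929.5 to 1069, and 934.9 to 1152 CPM. The part of either list in the *Grm4* values was not tested.

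In the striatum, *Grm4* had 44.2, 42.2, 63.1, and 41.4 CPM in the WT libraries, 23.2, 18.2, 29.8, and 21.8 CPM in the 154Q libraries, and 26.9, 28.4, 51.9, and 18.9 CPM in the 154Q-AXH libraries. All 154Q libraries were below all WT libraries, and 154Q-AXH overlapped both. The log2 fold change was -1.04 (SE 0.26, edgeR adjusted p = 0.0382) in 154Q and -0.60 (SE 0.26, edgeR adjusted p = 0.358) in 154Q-AXH mice. The high values, 63.1 and 51.9 CPM, belong to WT-220 and 154Q-AXH-217, the libraries with the high striatal markers. Without this pair, an alternative chosen after seeing the data, *Grm4* fell in both mutants, by 0.86 in 154Q (edgeR adjusted p = 0.00296) and by 0.77 in 154Q-AXH mice (edgeR adjusted p = 0.0184), and the difference between them was 0.09 (SE 0.16). The 154Q call was lost without any 1 of 8 libraries (WT-70, WT-77, WT-220, WT-221, 154Q-69, 154Q-71, 154Q-76, or 154Q-AXH-209), with edgeR adjusted p values of 0.0542 to 0.106 and log2 fold changes of -0.87 to -1.10. Without 154Q-AXH-217 alone, the 154Q-AXH change was called (log2 fold change -0.94, edgeR adjusted p = 0.0398). The striatal marker sums were 1390 to 4510 CPM in WT, 555 to 978 CPM in 154Q, and 496 to 2775 CPM in 154Q-AXH mice, and their part in the *Grm4* values was not tested.

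In the brainstem, *Grm4* had 34.1, 41.8, 32.6, and 38.7 CPM in WT, 28.8, 25.3, 25.9, and 37.3 CPM in 154Q, and 25.9, 44.5, and 29.0 CPM in the libraries of 154Q-AXH-207, 154Q-AXH-209, and 154Q-AXH-218. The genotypes overlapped, and neither change passed the test (log2 fold change -0.33, interval -0.65 to -0.01, edgeR adjusted p = 0.496, and -0.15, -0.50 to 0.19, edgeR adjusted p = 0.927). The highest library of each mutant genotype, 154Q-76 and 154Q-AXH-209, also had the highest sum of the 8 cerebellar granule cell markers, 492 and 610 CPM against 217.5 to 417.3 CPM in the other 9 brainstem libraries. *Stap2* too was highest in 154Q-AXH-209 (2.82 CPM against 1.32 to 2.11 CPM in the rest). Without 154Q-AXH-209 the log2 fold change of *Grm4* in 154Q-AXH mice was -0.42 (edgeR adjusted p = 0.854) and that of *Stap2* -0.36 (edgeR adjusted p = 0.883).

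In the hippocampus, where *Grm4* is lowest, it had 12.2, 8.06, 11.2, and 9.19 CPM in WT, 7.10, 9.73, 8.94, and 17.3 CPM in 154Q, and 10.3, 5.44, 9.88, and 5.07 CPM in 154Q-AXH libraries. The highest value is that of 154Q-76, the library with brainstem markers. With it the log2 fold change in 154Q mice was 0.09 (edgeR adjusted p = 0.897), and without it -0.25 (edgeR adjusted p = 0.612).

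**Figure D4:**
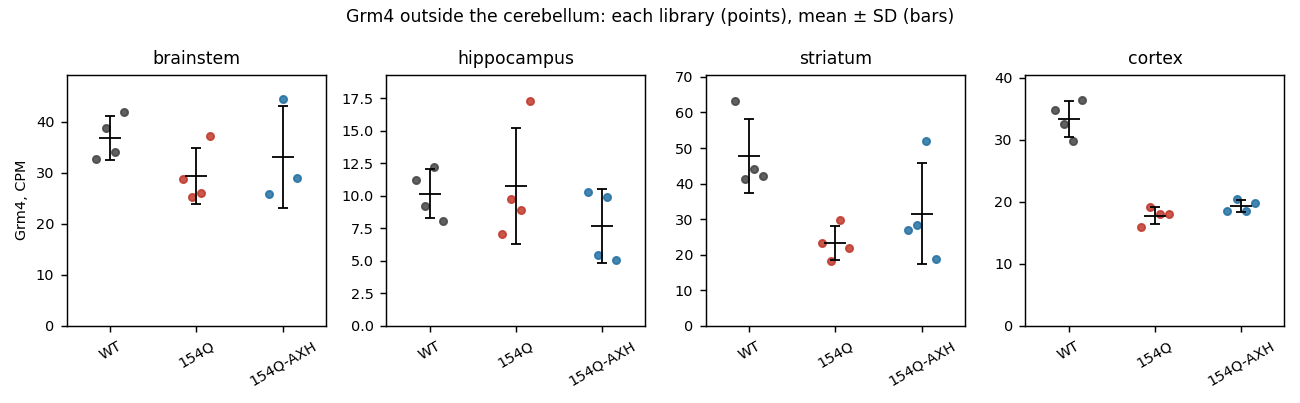
*Grm4* in the 4 regions outside the cerebellum, in CPM on linear axes from 0 that differ between panels. Points are libraries and bars are mean ± SD (n = 4, or 3 for 154Q-AXH in the brainstem). In the cortex all 8 mutant libraries lie between 15.9 and 20.4 CPM, below all WT libraries, and in the striatum the high points of WT and 154Q-AXH mice at 63.1 and 51.9 CPM are WT-220 and 154Q-AXH-217.

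*Plcb3* was lower in the hippocampus of mutant mice without passing the test. Its WT libraries had 20.9, 21.7, 21.4, and 22.3 CPM, its 154Q libraries 19.8, 19.6, 19.6, and 18.6 CPM, and its 154Q-AXH libraries 19.5, 17.8, 17.7, and 18.9 CPM. Both mutant genotypes lay below all WT libraries, beside non-overlap of 13.8% and 12% of all hippocampal genes. The log2 fold change was -0.15 (SE 0.053, edgeR adjusted p = 0.119) in 154Q and -0.22 (SE 0.054, edgeR adjusted p = 0.0648) in 154Q-AXH mice. The second passed without the library of 154Q-76 (edgeR adjusted p = 0.0346), and both passed with DESeq2 (adjusted p = 0.0396 and 0.00302). The 5 hippocampal neuron markers summed to 586.1 to 724.9 CPM in WT, 284.2 to 445.6 CPM in 154Q, and 428.8 to 525.2 CPM in 154Q-AXH hippocampus, without overlap between WT and either mutant, and their part in the *Plcb3* values was not tested. In the other 3 regions *Plcb3* had log2 fold changes between -0.20 and -0.01 in the mutants.

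*Triobp* was lower in the cortex of mutant mice, again without passing the test. It had 10.0, 10.7, 10.0, and 10.2 CPM in WT, 9.31, 9.29, 8.44, and 7.48 CPM in 154Q, and 9.10, 8.79, 8.73, and 8.72 CPM in 154Q-AXH libraries. No mutant library reached the WT range, beside non-overlap of 14.7% and 15.5% of all cortical genes. The log2 fold change was -0.25 (SE 0.078, edgeR adjusted p = 0.0515) in 154Q and -0.21 (SE 0.078, edgeR adjusted p = 0.121) in 154Q-AXH mice. The first passed with DESeq2 (adjusted p = 0.0362) and without 154Q-71 (edgeR adjusted p = 0.0404). In the striatum, every 154Q-AXH library (8.69 to 10.3 CPM) was above every 154Q library (7.04 to 8.67 CPM), with a difference of 0.30 (SE 0.097, edgeR adjusted p = 0.945), where 4.98% of genes did not overlap.

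*A830018L16Rik*, which was high in the 154Q cerebellum, was not high in any other region of 154Q mice. Its log2 fold change in 154Q against WT was -0.24 (SE 0.078) in the cortex, -0.22 (SE 0.10) in the hippocampus, -0.08 (SE 0.15) in the striatum, and 0.00103 (SE 0.053) in the brainstem, with edgeR adjusted p values of 0.0625, 0.240, 0.781, and 0.998. The striatal value includes WT-220 at 52.5 CPM, against 81.2 to 84.3 CPM in the other WT libraries. The 154Q libraries there had 66.2, 76.4, 72.4, and 69.3 CPM, and the change without WT-220 is not given. In the cortex, the WT libraries had 83.6, 88.4, 83.7, and 84.1 CPM and the 154Q libraries 61.0, 67.2, 84.9, and 74.8 CPM, so that 1 of the 4 (154Q-75) lay in the WT range. Without 154Q-75 the change was called (log2 fold change -0.33, edgeR adjusted p = 0.00551), as it was by DESeq2 (adjusted p = 0.0356). In the hippocampus, the 154Q-AXH libraries (108 to 137 CPM) all lay above the 154Q libraries (74.3 to 103 CPM), with a difference of 0.35 (SE 0.10, edgeR adjusted p = 0.422), where 4.79% of genes did not overlap. The lowest of these, 74.3 CPM, was 154Q-76, and the difference without it was 0.27 (edgeR adjusted p = 0.663).

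*Stap2*, with the largest cerebellar change, had log2 fold changes against WT between -0.34 and 0.18 in the other regions, each with an SE of 0.18 to 0.23. The lowest of these, in the striatum of 154Q-AXH mice, had an interval of -0.72 to 0.04.

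**Figure D5:**
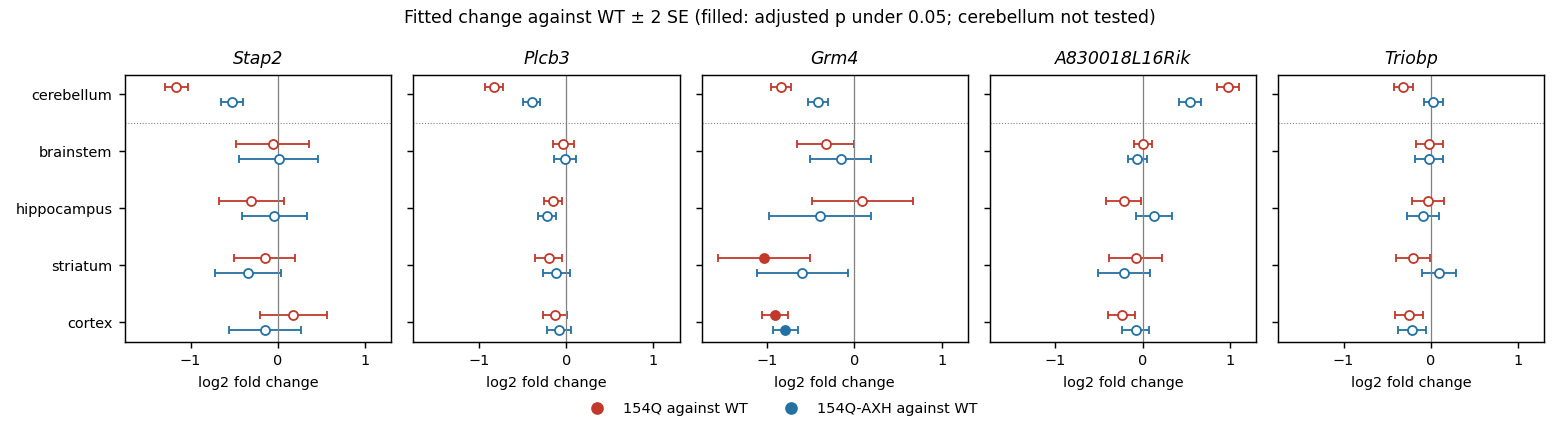
Fitted log2 fold change against WT (points, with bars of 2 SE on either side) of the 5 genes in each region, for 154Q and 154Q-AXH mice. Filled points have an edgeR adjusted p under 0.05, and the cerebellar values above the dotted line carry no test. The filled points are *Grm4* in the striatum of 154Q mice and in the cortex of both mutants.

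The measure that chose the genes can be read in the other regions as well. The number of the 5 that lay nearer to WT in 154Q-AXH than in 154Q mice was 5 in the cortex, 3 in the striatum, 2 in the hippocampus, and 3 in the brainstem, beside shares of all genes of 55.1%, 65.4%, 56.1%, and 52.4%. The mutant genotypes share WT mice and differ in number series here too, and the mice are those of the cerebellum. The brainstem count was 0 without 154Q-AXH-209 and at most 4 without another library. The cortical count was 4 to 5 without a library. It includes 154Q-76 and 154Q-AXH-207, whose cortical file names each give the other mouse. The lowest *Triobp* value of 154Q cortex (7.48 CPM) and the highest of 154Q-AXH cortex (9.10 CPM) belong to these libraries. The count without both is not given. Of the 5 in the cortex, *Grm4* was the only one called in either mutant, and its 154Q-AXH change was 0.79 beside 0.91 in 154Q mice, both as falls.

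Whether the changes differ between regions was tested among the 4 regions outside the cerebellum (F test of genotype by region, edgeR). For 154Q, 0 of 5 genes were called, with 1 at an unadjusted p under 0.05 and 1 called by DESeq2, where 3.12% of 22383 genes were called. The gene was *Grm4* in both cases (edgeR adjusted p = 0.110, DESeq2 adjusted p = 0.0490, and edgeR adjusted p = 0.101 with the mouse as a block). For 154Q-AXH, 0 of 5 were called, with 0 at an unadjusted p under 0.05 and 0 by DESeq2, where 0.433% of genes were called.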

How the data were processed

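RNA-seq was performed on 5 regions of 12 mice. According to the labels, trimming was done with Trimmomatic 0.36 and alignment to GRCm38.p6 with STAR 2.7.2d, and DESeq2 1.28.1 is also named. The study's methods give the genome as GRCm38.p6 M18 and say that STAR also made the counts. The deposited files hold whole read-pair counts per gene without normalization, in 1 column that ignores strand and 1 for each strand. Since the first strand took 48.9% to 50.1% of the stranded counts, the column that ignores strand was analysed. Of all pairs, 75.3% to 81.2% fell on genes. Summary lines were left out, as was a human transgene line (53 counts or fewer). GENCODE M21, a later release than M18, gave symbols and positions for 54079 of 54232 genes.

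In each region, genes were kept by filterByExpr, library sizes were scaled by TMM, and all 3 genotypes entered 1 model, tested with the quasi-likelihood F test of edgeR 4.0.16 (R 4.3.3). P values were adjusted by Benjamini-Hochberg over all genes tested, at a threshold of 0.05. The SE was taken as the size of the log2 fold change over the square root of its F statistic, and log2 CPM had a prior count of 2. Intervals span 2 SE on either side. Regions were compared in WT mice, and genotype by region outside the cerebellum. Alternatives were DESeq2 1.42.0, DESeq2 size factors within edgeR, a filter of 1 count, fits of 2 genotypes, a covariate for the series of mouse numbers, WT mice of 1 series, first-strand counts, removal of each library, and the mouse as a block. A mouse number in the labels was taken to mark the same animal in each region, so it pairs libraries across regions and never across genotypes. Correlations of deviations cannot settle this, since their ranges overlapped. They ran from -0.576 to 0.639 within mouse numbers (median 0.102) and from -0.557 to 0.528 between them (median -0.017). The fits were also run on simulated counts with independent libraries. The outcome is not given here and is not used for any call. Replicates are separate mice.

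The members and lists were chosen with earlier results of these data known. Genes named besides the members are pathway genes called in the 154Q cerebellum and the 3 genes most correlated with each member, of which some are not reported here. Any other gene named was picked after its values were seen.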

Additional observations from a re-analysis of the deposited data

Results flagged for a closer look

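Among 70 groups of 4 libraries, 6 held a library far from the other 3 by Dixon's test, which chance gives in about 1 of 20 groups, or 3.5 here. In the striatum, WT-220 had 63.1 CPM of *Grm4* against 41.4 to 44.2 in the other WT libraries, and 52.5 CPM of *A830018L16Rik* against 81.2 to 84.3. Also in the striatum, 154Q-AXH-217 had 0.925 CPM of *Stap2* against 1.19 to 1.22, and WT-221 had 9.88 CPM of *Triobp* against 8.60 to 8.79. For *A830018L16Rik*, 154Q-AXH-218 had 137 CPM in the hippocampus against 108 to 113, and WT-77 had 88.4 CPM in the cortex against 83.6 to 84.1.

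The fitted log2 fold changes of *A830018L16Rik* had opposite signs in different regions, with all mutant libraries on 1 side of the WT mean in each. None of those outside the cerebellum passed the test (edgeR adjusted p = 0.240 and 0.0625 in the hippocampus and cortex of 154Q mice, and 0.601, 0.631, and 0.626 in the hippocampus, striatum, and cortex of 154Q-AXH mice). In 154Q mice its log2 fold change was 0.97 in the cerebellum, against -0.22 in the hippocampus and -0.24 in the cortex. In 154Q-AXH mice it was 0.54 in the cerebellum and 0.13 in the hippocampus, against -0.21 in the striatum and -0.08 in the cortex. The cerebellar values chose the gene, and the differences from the cerebellum were not tested. Those among the other regions were part of the F test of genotype by region, in which *A830018L16Rik* had an edgeR adjusted p of 0.969 for 154Q-AXH.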

How the results depend on the processing

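In the 4 regions outside the cerebellum, the 2 pairs of gene and region called in 154Q against WT became 5 with DESeq2, 1 when the series of mouse numbers was a covariate, and 1 to 3 without a library. The 1 pair called in 154Q-AXH against WT became 2 with DESeq2, 2 when striatal WT-220 and 154Q-AXH-217 were left out (chosen after seeing the data), and 1 to 2 without a library. Without the cortical libraries of 154Q-76 and 154Q-AXH-207, the counts were 2 and 1. No pair was called between the mutants under any of these. With the covariate, striatal *Grm4* in 154Q had an edgeR adjusted p of 0.261 (log2 fold change -0.89). The cause of these moves was not tested.

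The number of genes nearer to WT in 154Q-AXH stayed at 5 in the cerebellum without each of the 12 libraries and under 3 other alternatives. Only these were counted, which is fewer than the alternatives listed above. Leaving out a library gave 4 to 5 in the cortex, 3 to 3 in the striatum, 2 to 2 in the hippocampus, and 0 to 4 in the brainstem. All 5 genes differed between WT regions in all alternatives. The mouse as a replicate block left this count at 5 and those of a genotype change differing between regions at 0 and 0, while DESeq2 gave 1 for 154Q. Within a region no mouse recurs, so no block applies there. Calls in the pathway lists in the cerebellum were 10 to 18 (154Q), 4 to 8 (154Q-AXH), and 0 to 0 (between mutants) without a library. With DESeq2, 20 genes were called for 154Q, 12 for 154Q-AXH, and 2 between mutants. With the covariate, 12 were called for 154Q and 14 for 154Q-AXH, the reverse of the order in the report (15 and 6).

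No called value changed sign, while the cerebellar change of *Triobp* in 154Q-AXH mice, near 0, did so in 1 alternative. Outside the cerebellum, many values that were not called changed sign. Among them were *Stap2* in the hippocampus of 154Q-AXH mice (5 alternatives), *A830018L16Rik* in the brainstem of 154Q mice (5), and *Grm4* in the hippocampus of 154Q mice (2). Of the cerebellar log2 fold changes, 4 of 75 moved by more than the SD between replicates under an alternative other than leaving out a library. Depth limits *Stap2* outside the cerebellum, at 30 to 238 read pairs.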

Other observations

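The pathway lists were also counted outside the cerebellum, and the genes named here were chosen after their values were seen. Falls were not confined to the cortex. Of the 14 genes of phospholipase C beta and Gq signalling, 5 fell in hippocampus, 4 in striatum, and 0 in brainstem of 154Q mice. In 154Q-AXH mice 1, 2, and 0 fell. Of all genes, edgeR called 5.91%, 5.69%, and 0.538% in 154Q and 1.3%, 1.35%, and 0.0138% in 154Q-AXH mice. In the cortex, where *Grm4* fell in both mutants, 2 of the 6 other metabotropic glutamate receptor genes tested fell as well. *Grm2* had a log2 fold change of -0.81 (SE 0.093, edgeR adjusted p = 7.35e-05) in 154Q and -0.78 (SE 0.093, edgeR adjusted p = 0.000125) in 154Q-AXH mice, and *Grm3* had -0.45 (edgeR adjusted p = 0.00115) and -0.37 (edgeR adjusted p = 0.00661). Both receptors couple to Gi proteins, as *Grm4* does. Of the 14 genes of phospholipase C beta and Gq signalling, 6 fell in 154Q cortex and 4 in 154Q-AXH cortex, with *Rgs8* at -0.81 and -0.72. In the same cortical libraries, the sums of the 6 astrocyte markers did not overlap between WT (1157 to 1280 CPM) and 154Q (929.5 to 1069 CPM) or 154Q-AXH mice (934.9 to 1152 CPM), and 4 of the 6 fell in 154Q mice. The 5 cortical neuron markers summed to 517 to 617, 369 to 448, and 370 to 447 CPM. The part of these cell types in the list genes was not tested. Of all cortical genes, 11.1% and 7.15% were called in these comparisons.

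Of 9 CIC target genes known from other systems, 5 fell in the cortex of 154Q mice (*Spred1*, *Dusp4*, *Dusp6*, *Etv1*, and *Etv5*) and 4 in 154Q-AXH mice (the same without *Spred1*). In the striatum 2 of the 9 fell in each mutant. In the hippocampus 1 fell in 154Q and 0 in 154Q-AXH mice, and in the brainstem 0 fell in either. *Dusp4*, a phosphatase that limits MAP kinase signals, had log2 fold changes of -0.84 (SE 0.15, edgeR adjusted p = 0.00214) and -0.96 (SE 0.15, edgeR adjusted p = 0.00125). No gene of any list was called between the mutant genotypes in the cortex, where 0% of all genes were called by edgeR.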
